A study of Mus musculus with 2 samples.

Results

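The glucocorticoid receptor gene Nr3c1 and 6 genes that the receptor is known to induce, Fkbp5, Tsc22d3, Sgk1, Cebpd, Pdk4 and Hsd11b1, were followed in mouse embryonic fibroblasts given celastrol. The 7 genes were chosen by name, as textbook members of glucocorticoid signalling, out of 19946 genes with a probe set that names them alone. All 7 had exactly 1 such probe set. They and the gene lists used below were chosen with earlier results of these data known. Both cultures carried an adenovirus expressing LacZ, a bacterial reporter that serves as a control cargo, and were kept for 7 h in DMEM with 1% FBS. One received DMSO, the solvent, and the other 250 nM celastrol, a quinone methide triterpenoid of plant origin. The labels name no added glucocorticoid and give neither the strain nor the passage of the cells. Expression was read from 1 Affymetrix whole-transcript array per condition, so no difference has a replicate check and no test was possible. The treatment, the culture and the array therefore cannot be told apart.

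Without hormone the glucocorticoid receptor sits in the cytoplasm in a complex with the chaperone HSP90 and its partners, which keep its hormone-binding pocket open. Hormone binding sends it to the nucleus, where it binds DNA at palindromic glucocorticoid response elements and switches on genes, while it restrains inflammatory genes largely by acting on other transcription factors. In fibroblasts the hormone is known for damping chemokine and matrix protease genes. Receptor protein, its location in the cell and its binding to DNA were not measured here, and a transcript level does not report them.

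Values are log2 expression after RMA, so that 1 unit is a 2-fold difference, and each difference is celastrol minus DMSO. A gene was counted as detected if it exceeded 5.73 in at least 1 array, which is the 95th percentile over 1205 probe sets of smell and pheromone receptor genes, a family that fibroblasts should lack. Of the 7 genes, 6 were detected, all of them in both arrays, and Hsd11b1 was below the limit in both. Of the 6, 4 were higher and 2 lower with celastrol, and 0 reached 2-fold in either direction, where 1.89% of the 13899 detected genes passed that mark upward and 0.662% downward. At 1.5-fold, 1 was higher (background 6.19%) and 1 lower (background 4.68%). The median difference of the 6 was 0.07, against -0.01 over all detected genes, of which 48.1% were higher and 51.9% lower. The members therefore did not share a direction, and their differences spanned 1.43 on the log2 scale, from Cebpd to Sgk1.

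**Figure D1:**
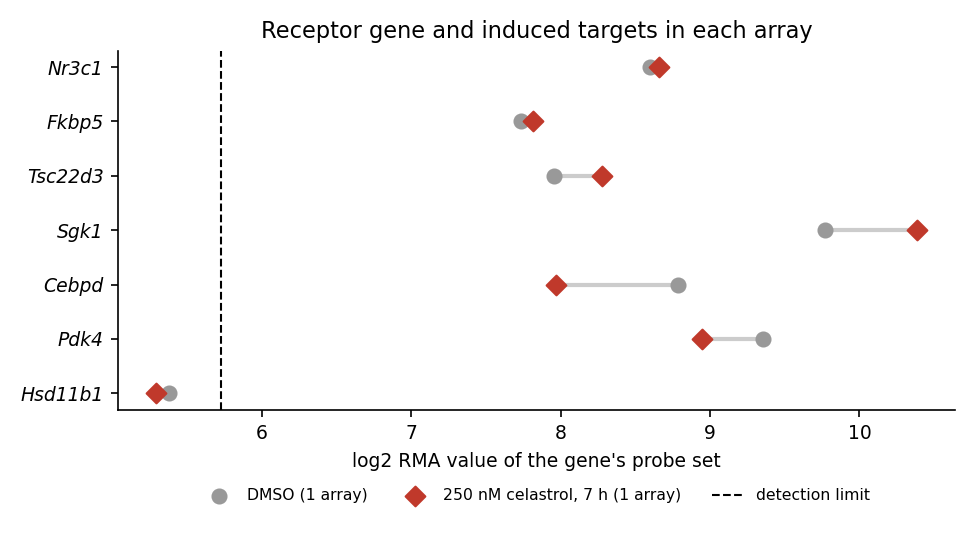
Log2 RMA value (horizontal axis) of the 7 genes in the DMSO array (grey circles) and the celastrol array (red diamonds), with the detection limit of 5.73 as a dashed line. Sgk1 and Tsc22d3 lie to the right with celastrol and Cebpd and Pdk4 to the left. Nr3c1 and Fkbp5 nearly coincide, and Hsd11b1 is below the limit in both arrays. The number of arrays is 1 per group, so there are no error bars. Positions of different genes along the axis belong to different probe sets and do not rank their transcript levels.

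Nr3c1, the receptor gene itself (probe set 10458569), read 8.60 with DMSO and 8.66 with celastrol. The difference of 0.06, or 1.04-fold, was smaller in size than that of 84.0% of detected genes. Among the 1298 detected genes whose mean level lay within 0.25 of that of Nr3c1, 87.8% differed at least as much. The receptor transcript was thus about equal in these arrays, and the sign of its difference stayed positive under every scaling tried.

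Fkbp5 encodes FKBP51, a co-chaperone of the receptor complex that lowers its affinity for hormone and is itself strongly induced by it, which makes the gene a common readout of receptor activity. Its probe set 10449452 read 7.73 with DMSO and 7.81 with celastrol. That difference of 0.08 (1.06-fold) was matched or exceeded in size by 78.4% of detected genes. Nr3c1 and Fkbp5 were the 2 members that fell between the 25th and the 75th percentile of all detected genes, which lay at -0.22 and 0.19.

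Tsc22d3 encodes GILZ, a leucine zipper protein that binds NF-kB and AP-1 subunits and carries part of the anti-inflammatory action of the hormone. It read 7.95 with DMSO and 8.28 with celastrol (probe set 10606989), a difference of 0.32 or 1.25-fold. Of the detected genes, 14.6% had a higher difference, and 37.0% of the 1208 genes of like level were at least as far from 0. The gene was therefore modestly higher, within the range that many genes of its level showed.

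Sgk1, a serum- and glucocorticoid-regulated kinase that controls ion channels and shares targets with AKT, was the highest of the members. Its probe set 10362073 read 9.77 with DMSO and 10.38 with celastrol, a difference of 0.61 or 1.53-fold. A higher difference was seen for 5.69% of detected genes, and 13.96% of 974 genes of like level were at least as far from 0. Sgk1 thus lay just inside the 95th percentile of all detected genes, at 0.66. Serum, cell shrinkage and growth factors also induce this gene, so its level is not a readout of the receptor alone.

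Cebpd, which encodes the transcription factor C/EBP delta, an early factor of fat cell differentiation and of the acute phase response, was the lowest. Probe set 10433885 read 8.78 with DMSO and 7.97 with celastrol, so the gene was 1.76-fold lower (-0.81 on the log2 scale). A share of 1.55% of detected genes had a lower difference, and 6.49% of 1278 genes of like level were at least as far from 0. It was the 1 member outside the 5th to 95th percentile of all detected genes, the 5th lying at -0.57. Cebpd is also a known target of inflammatory cytokines acting through STAT3 and NF-kB.

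Pdk4, a kinase that switches off pyruvate dehydrogenase and so spares glucose during fasting, read 9.35 with DMSO and 8.95 with celastrol (probe set 10543017). It was 1.32-fold lower (-0.41), and 11.1% of detected genes had a lower difference. Its difference fell within the central 95% of those 1205 smell and pheromone receptor probe sets, which ran from -0.42 to 0.41, as did those of Nr3c1, Fkbp5 and Tsc22d3. Sgk1 and Cebpd were the 2 members outside that range. Those probe sets are dim, and their scatter holds no variation between cultures.

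Hsd11b1 encodes the enzyme that regenerates active glucocorticoid from its inactive keto form inside cells. Its probe set 10361234 read 5.38 with DMSO and 5.29 with celastrol. Both lie below the detection limit, so no fold is given and the gene enters no count of higher or lower genes. H6pd, which supplies this enzyme with NADPH in the endoplasmic reticulum, was detected at 8.995 and 8.71 (-0.29).

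**Figure D2:**
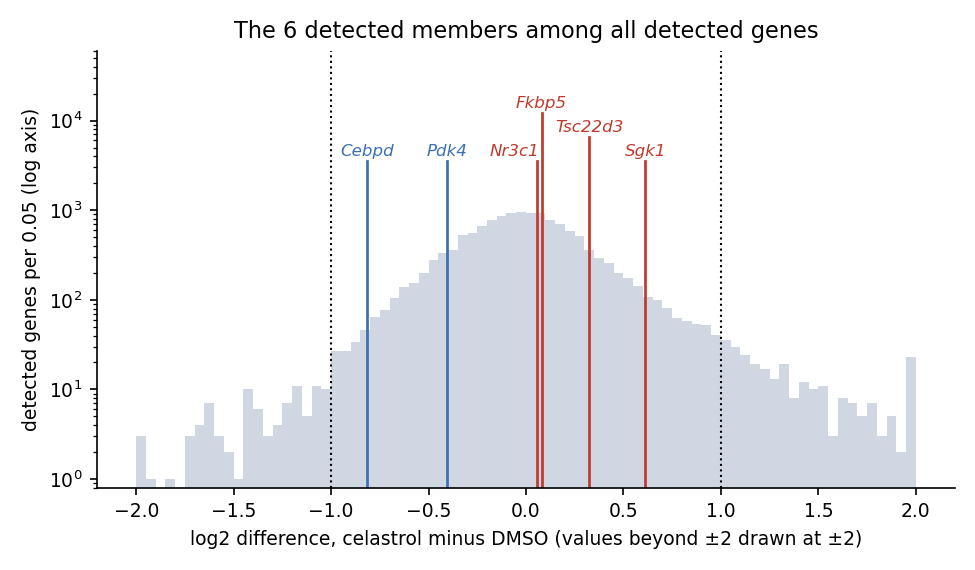
Histogram of the log2 difference (celastrol minus DMSO, horizontal axis) of the 13899 detected genes in bins of 0.05, with the number of genes on a log axis and differences beyond 2 in size drawn at the edge. Lines mark the 6 detected members, red where higher and blue where lower with celastrol, and their heights carry no value. All 6 lie between the dotted lines at 2-fold, with Cebpd (-0.81) in the lower tail and Sgk1 (0.61) in the upper shoulder.

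The promoters of the members differ in whether a receptor element stands near a start. RefSeq promoter windows (GRCm38.p6, from 250 bases before to 50 after each start) matched 5 of the 7 genes and held 12 windows for them: 6 for Sgk1, 3 for Tsc22d3 and 1 each for Fkbp5, Pdk4 and Hsd11b1. Nr3c1 and Cebpd are not among them. Each window was searched on both strands for the full glucocorticoid response element, a palindrome in which the arm AGAACA is followed after any 3 bases by its mirror TGTTCT. It was found in 3 of 32851 windows (0.00913%), belonging to Sgk1, Acnat2 and Gm35041. Of the 5 members with windows, Sgk1 was the one that held the full palindrome. Whether the match bears on its level was not tested. The bases upstream of that start are shown, at chr10:21993640-21993889 on the plus strand, with the element in capitals.
Sgk1 upstream stretch: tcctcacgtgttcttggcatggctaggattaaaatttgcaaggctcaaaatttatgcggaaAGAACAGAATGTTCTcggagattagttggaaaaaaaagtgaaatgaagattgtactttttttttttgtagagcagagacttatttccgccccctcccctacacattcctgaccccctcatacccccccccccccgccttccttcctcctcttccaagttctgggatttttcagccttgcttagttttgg

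The element spans chr10:21993701-21993715. It lies 189 bases upstream of the start at 21993890 and 965 bases upstream of the last RefSeq start of the gene, at 21994666. The other 4 Sgk1 starts lie upstream of it. The array gives 1 value for Sgk1, so which start the transcripts came from was not measured. A match of letters is no evidence that the receptor was bound there.

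A single arm of the palindrome, AGAACA, occurred in 18.97% of all windows and in 4 of the 12 member windows, 3 of Sgk1 and 1 of Tsc22d3. Both arms of the full element count among those matches. The Tsc22d3 match lies on the strand opposite to the gene, 185 to 180 bases before the start at chrX:140600522, and is shown in capitals within chrX:140600685-140600724, minus strand.
Tsc22d3 single arm: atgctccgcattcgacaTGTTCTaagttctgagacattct

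The heat shock element, searched as GAA, TTC and GAA with any 2 bases between them, stood in 0.603% of all windows and in 0 of the 12. The antioxidant response element TGACNNNGC stood in 12.4% of all windows and in 1 of the 12, that of Hsd11b1. The E-box CACGTG stood in 7.15% of all windows and in 2 of the 12, those of Fkbp5 and of the Sgk1 start with the full element. The Pdk4 window held none of these letters. The windows are short, and known receptor elements of genes such as Fkbp5 lie in introns far from the start, so an empty window says nothing about the receptor.

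**Figure D3:**
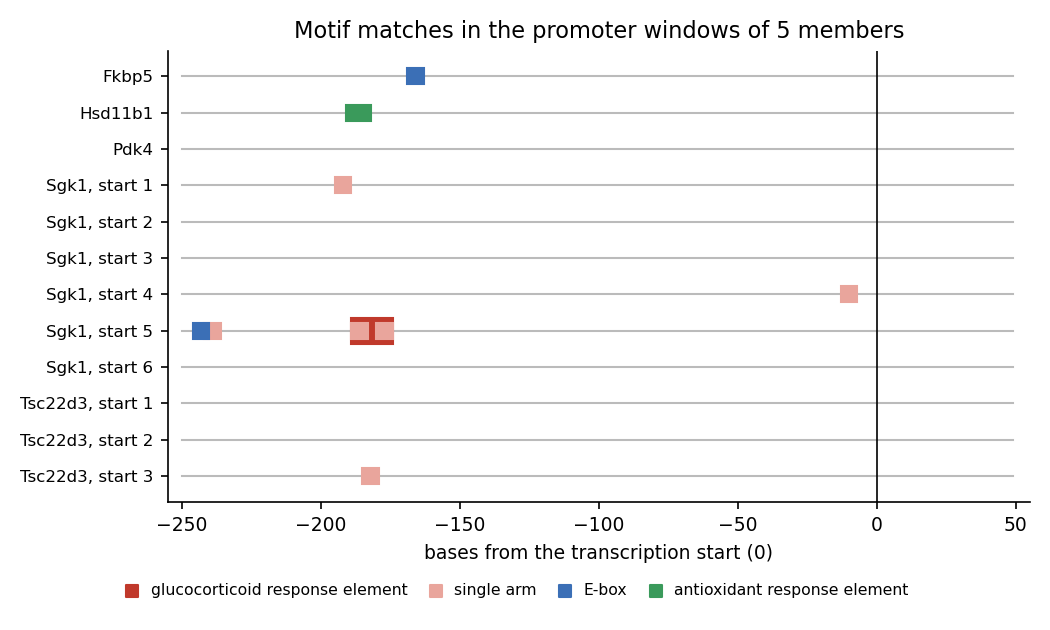
Positions of motif matches, in bases from the transcription start (horizontal axis, 0 at the start), in the 12 RefSeq promoter windows of 5 members, with starts of one gene numbered by coordinate. The full glucocorticoid response element (dark red, with its single arms in light red on top) appears only in the fifth Sgk1 window, 189 to 175 bases before the start. Single arms also stand in the first and the fourth Sgk1 window and in the third Tsc22d3 window.

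To set these promoters beside other receptor targets, a relaxed form of the element, GNACA followed after any 3 bases by TGTNC (N being any base), was searched in the same way. This form was chosen after the results were seen, and the full element always contains it. It occurred in 0.475% of all windows, and 145 of all 27025 genes with windows held it. Of 40 further genes known to be induced by glucocorticoids, 35 had windows, and 4 of these genes held the relaxed form in at least 1 window. Among 17 genes known to be repressed, 0 held it. With so few genes and so rare a form, that 0 sets no contrast with the induced genes. The stretches around it are shown with the 13 bases of the match in capitals, each read along its gene: Sgk1 at chr10:21993688-21993727 (plus), Mt1 at chr8:94178981-94179020 (plus), Fam107a at chr14:8309872-8309911 (minus), Trim63 at chr4:134314898-134314937 (plus) and Txnip at chr3:96557771-96557810 (plus).
Sgk1 relaxed element: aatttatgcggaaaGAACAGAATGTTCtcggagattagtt
Mt1 relaxed element: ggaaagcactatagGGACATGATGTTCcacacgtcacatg
Fam107a relaxed element: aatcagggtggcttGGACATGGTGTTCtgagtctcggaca
Trim63 relaxed element: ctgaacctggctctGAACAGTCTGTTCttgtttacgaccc
Txnip relaxed element: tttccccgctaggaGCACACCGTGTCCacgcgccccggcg

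These 4 genes of the induced list went both ways. Mt1, a metallothionein, read 12.83 with DMSO and 13.27 with celastrol, a difference of 0.44. Trim63, a muscle ubiquitin ligase, read 6.13 and 6.28 (0.16). Fam107a, an actin-binding protein gene, was below the limit with DMSO at 5.63 and just above it with celastrol at 5.80. Txnip, an arrestin that restrains glucose uptake, read 10.34 and 9.65, a difference of -0.69. Together with Sgk1 (0.61), these were the genes with such an element that were looked at, out of 145 genes with one in a window.

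The wider set of glucocorticoid-induced genes also held both higher and lower genes. Of the 40 listed genes, 37 were detected, 21 of them higher and 16 lower with celastrol, with a median difference of 0.07. Rgs2, Mertk and Fam107a exceeded the limit in the celastrol array only, so they could be counted only as higher. Without a detection limit, 22 were higher and 18 lower, with a median of 0.05. At least 2-fold differences were seen for 4 upward (background 1.89%) and 3 downward (background 0.662%). The 3 became 2 once the median difference or a lowess trend was subtracted, as Tgm2 was barely past 2-fold. Above the 95th percentile of all detected genes lay 6 of the 37, and below the 5th percentile also 6. By construction, 5% of all detected genes lie in each of these tails.

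Gadd45g, a stress sensor, read 9.05 with DMSO and 10.86 with celastrol (3.52-fold higher). Ddit4, an mTORC1 inhibitor that is also an ATF4 and HIF1 target, read 9.01 and 10.53 (2.88-fold higher). Klf9, a Kruppel-like factor, read 8.38 and 9.55 (2.25-fold higher). Dusp1, the MAP kinase phosphatase that the hormone uses against inflammation, read 10.76 and 11.78 (2.04-fold higher). These are the highest of the list.

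At the other end stood, among others, a pair of genes that NF-kB also controls. Nfkbia, the NF-kB inhibitor, read 10.49 with DMSO and 8.85 with celastrol (3.12-fold lower), and Tnfaip3, a deubiquitinase that limits NF-kB signalling, read 8.91 and 8.01 (1.87-fold lower). Angptl4, an inhibitor of lipoprotein lipase, read 8.67 and 7.23 (2.71-fold lower), and Tgm2, a transglutaminase, 7.65 and 6.65 (2.01-fold lower). Per1, a clock gene with a well-known receptor element, stood at 7.98 and 8.001, and Zbtb16, often used as a selective readout of the hormone, was close to the limit at 5.98 and 5.79. Per1 and Zbtb16 were singled out after their values were seen.

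Genes that glucocorticoids repress were mostly lower. Of 27 listed genes, 21 were detected, 15 of them lower and 6 higher, where 51.9% of all detected genes were lower. Past 2-fold lay 10 downward, Il6 among them (background 0.662%), and 1 upward (background 1.89%), and the median was -0.88. Il6, Mmp3 and Pomc exceeded the limit in the DMSO array only, so they could be counted only as lower. Tnf exceeded it in the celastrol array only and could be counted only as higher. Without a detection limit, 21 were lower and 6 higher, 10 of the lower past 2-fold, with a median of -0.66. The list consists largely of NF-kB targets, whose lower values were known when it was drawn up, so it adds no independent direction. The lowest were Nos2, the inducible nitric oxide synthase (9.99 with DMSO and 7.48 with celastrol), and Cxcl5, a neutrophil chemokine (12.10 and 10.03). Vcam1, a leukocyte adhesion molecule (10.76 and 8.93), and Has2, a hyaluronan synthase (10.35 and 8.68), followed. Mmp13, a collagen-cleaving protease (8.81 and 9.90), Ptgs2, a prostaglandin-forming enzyme (12.59 and 13.56), Il11, an IL6-family cytokine (5.77 and 6.64), and Plat, tissue plasminogen activator (9.51 and 10.19), stood on the other side. In these arrays the repressed list thus had a low median, while the median of the induced list was near that of all genes.

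**Figure D4:**
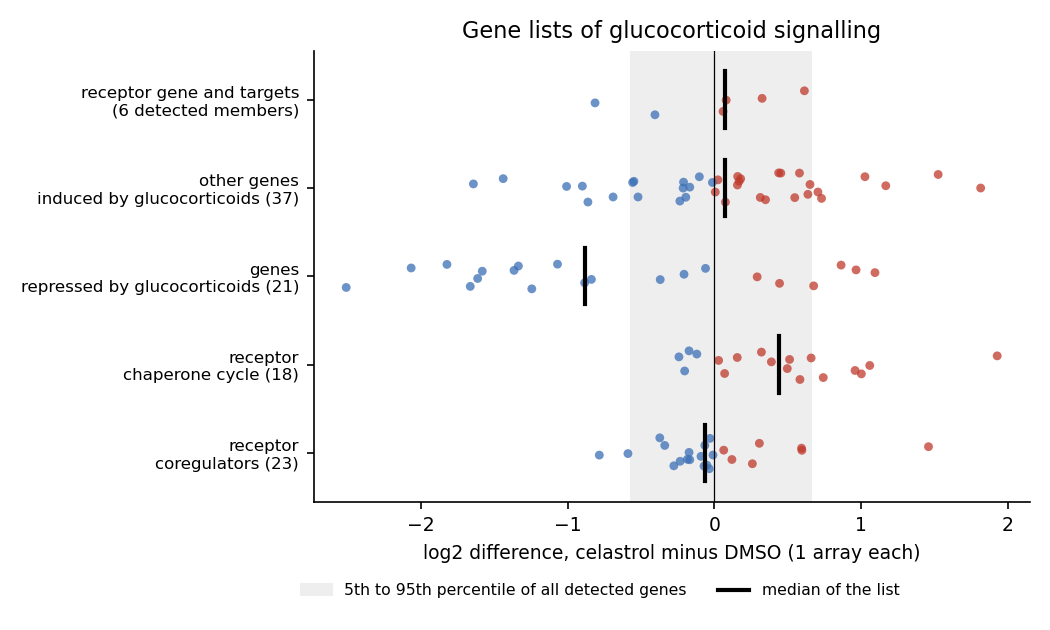
Log2 difference (celastrol minus DMSO, 1 array each, horizontal axis) of each detected gene in the 6 members and in 4 lists, red where higher and blue where lower, with the list median as a black line and the 5th to 95th percentile of all detected genes shaded. Vertical scatter within a row carries no value. The induced list spreads to both sides of 0 (median 0.07), the repressed list lies mostly to the left (median -0.88), the chaperone list to the right (0.44) and the coregulators around 0 (-0.07).

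Genes of the chaperones that load and hold the receptor were mostly higher with celastrol. Besides Fkbp5, 18 of 19 listed genes could be measured and all 18 were detected, 14 higher and 4 lower, where 48.1% of all detected genes were higher. Their median difference was 0.44. Of the 18, 3 passed 2-fold upward (background 1.89%) and 0 downward (background 0.662%), and quantile normalization left 2, since Ahsa1 stood at the threshold. Dnajb1, an HSP40 co-chaperone, read 9.69 with DMSO and 11.62 with celastrol. Dnaja1, another HSP40, read 11.21 and 12.26, and Ahsa1, the activator of the HSP90 ATPase, 10.49 and 11.49. Hsp90aa1, the inducible HSP90, read 12.72 and 13.68, and its other probe sets gave 0.96 and 0.91. Hsp90ab1 was not analysed here. At the lower end were Stub1, a ubiquitin ligase that acts on chaperone clients (10.06 and 9.82), Bag1 (9.94 and 9.74), the phosphatase gene Ppp5c (9.96 and 9.79) and Ttc4 (8.15 and 8.03). All of these genes serve many clients of HSP70 and HSP90, not the receptor alone.

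Within the receptor complex, FKBP52 and FKBP51 compete for the same site on HSP90, and FKBP52 favours hormone binding. Fkbp4, which encodes FKBP52, read 10.49 with DMSO and 11.23 with celastrol, a difference of 0.74 against 0.08 for Fkbp5. The ratio of Fkbp4 to Fkbp5 signal was thus 1.58-fold higher in the celastrol array. Over the rest of the FKBP family, 10 of 12 detected genes were lower and 2 higher, under every scaling tried, where 51.9% of all detected genes were lower. The lowest was Fkbp14, a prolyl isomerase of the endoplasmic reticulum (8.63 and 7.69), and the others that were lower ran from -0.34 for Fkbp11 to -0.14 for Fkbp7. Fkbpl, with 0.19, was the other higher one. Fkbp1a, Fkbp1b, Fkbp2, Fkbp3, Fkbp8, Fkbp9 and Fkbp15 lay between -0.32 and -0.18.

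Cebpd was alone among the measured C/EBP genes in being lower, and Cebpz of that family was not analysed here. All 5 other detected genes of that family were higher, where 48.1% of all detected genes were higher. Their median was 0.55. Cebpb, which is induced by the hormone and acts with Cebpd in fat cell differentiation, read 9.42 with DMSO and 9.96 with celastrol (0.55). Cebpg, a dimer partner of ATF4, read 8.80 and 9.73 (0.93), and Ddit3, which encodes the stress factor CHOP, 8.83 and 10.72 (1.89). Cebpa (6.47 and 6.52) and Cebpe (5.77 and 6.10) were near the limit. The ratio of Cebpb to Cebpd signal was 2.57-fold higher with celastrol and that of Ddit3 to Cebpd 6.51-fold higher.

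Of the pyruvate dehydrogenase kinases, Pdk4 was not alone. Pdk2 read 8.01 with DMSO and 7.58 with celastrol (-0.43), and Pdk3 10.59 and 10.21 (-0.37) beside -0.41 for Pdk4. Pdk1, a HIF1 target, read 6.86 and 7.14 (0.28). The opposing phosphatase gene Pdp1 stood at -0.01 and Pdp2 at -0.35. Of the subunit genes of the enzyme complex, Pdha1, Pdhb, Pdhx, Dlat and Dld ran from -0.32 for Dlat to 0.12 for Pdhb. Of the 10 genes beside Pdk4, 3 were higher and 7 lower, where 51.9% of all detected genes were lower. Their median was -0.01, which turned to 0.01 once the median difference of all probe sets was subtracted and to 0.04 after a lowess trend was.

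Tsc22d3 was accompanied by Tsc22d2 (10.51 with DMSO and 10.89 with celastrol, 0.38), a related leucine zipper gene. Tsc22d1 (-0.26) and Tsc22d4 (-0.14) were lower. Of the kinases closest to Sgk1, Sgk2 (5.72 and 5.67) and Sgk3 (5.60 and 5.43) were below the detection limit in both arrays, so Sgk1 was the detected gene of that trio. Of 9 measured relatives and partners of Sgk1, 7 were detected, 3 higher and 4 lower with a median of -0.09, where 48.1% of all detected genes were higher. Ndrg1 (11.18 and 12.43, 2.37-fold higher) and Nedd4l, a ubiquitin ligase gene (9.02 and 9.90, 0.88), were also higher. Their protein products are SGK1 substrates, and the action of the kinase on them was not measured here. Ndrg1 is also a HIF1 target. Among the upstream and sister kinase genes, Akt1 (-0.32) and Akt2 (-0.45) were lower, Pdpk1 stood at 0.19, and Rictor and Mapkap1, subunits of mTORC2, at -0.09 and -0.27.

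**Figure D5:**
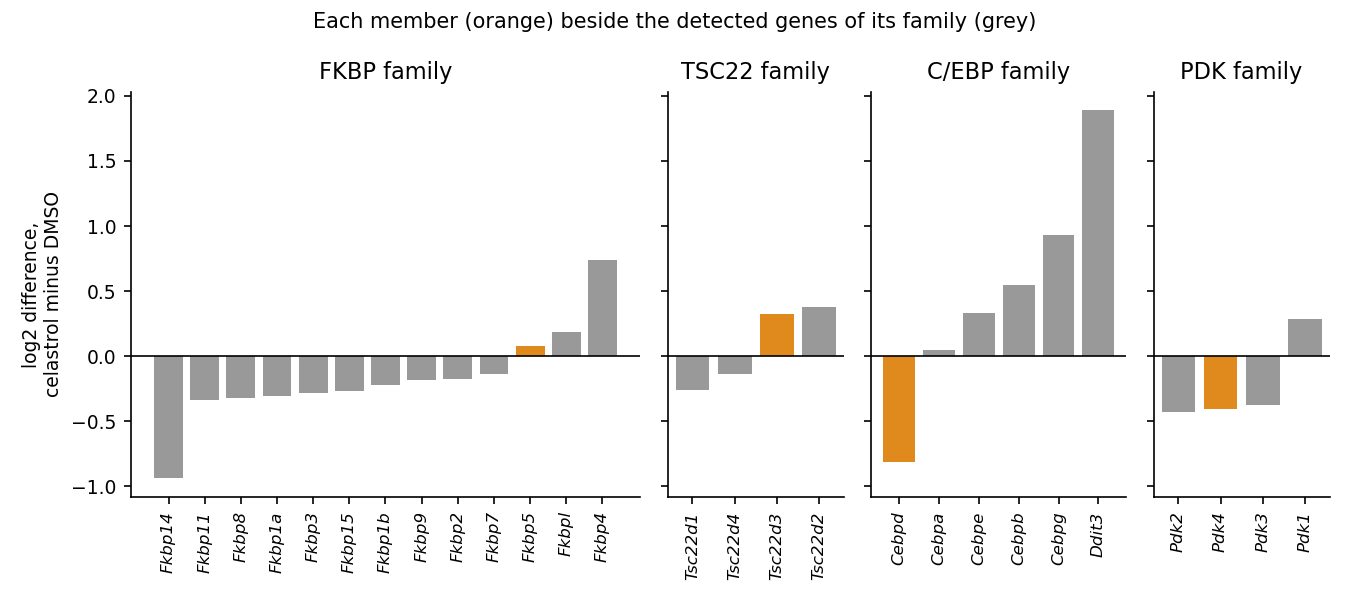
Log2 difference (celastrol minus DMSO, vertical axis from 1 array each) of 4 members (orange) and the detected genes of their families (grey bars), sorted within each panel. Cebpd (-0.81) is the only bar below 0 in its panel, Fkbp5 (0.08) is far shorter than Fkbp4 (0.74), Pdk4 matches Pdk2 and Pdk3, and Tsc22d3 is close to Tsc22d2.

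The coregulator genes were near 0 as a group. Of 25 listed, 23 were detected, 7 higher and 16 lower with a median of -0.07, and a lowess trend changed that split to 11 higher. Among all detected genes, 51.9% were lower and 1.89% at least 2-fold higher. Ppargc1a, which encodes the coactivator PGC1-alpha, was the 1 gene at least 2-fold higher (8.27 with DMSO and 9.73 with celastrol, and 1.60 by its other probe set). Nrip1, a corepressor of nuclear receptors (8.20 and 8.79), and Sirt1, a deacetylase (8.87 and 9.46), were next, followed by the p160 coactivator gene Ncoa3 (9.27 and 9.58). Tgfb1i1, the receptor coactivator Hic-5 (9.32 and 8.54), and Med1, a Mediator subunit (10.49 and 9.90), were lowest, then the methyltransferase gene Ehmt2 (-0.37) and the remodeller ATPase gene Smarca4 (-0.34).

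The other steroid receptors measured here were below or near the detection limit, apart from Esr1 in the celastrol array. The androgen receptor was not analysed here. Beside Hsd11b1, the list of steroid receptors and steroid metabolism held 16 measured genes, of which 8 were detected. Of these 8, 6 were higher and 2 lower, where 48.1% of all detected genes were higher. Their median was 0.24, and 0 reached 2-fold. Nr3c2, the mineralocorticoid receptor that also binds glucocorticoids (5.19 with DMSO and 4.94 with celastrol), and Pgr (5.57 and 5.25) were below the limit in both arrays. Esr1 read 6.22 and 6.84, a difference of 0.62 or 1.53-fold, and Esr2 5.74 and 6.02. Of Nr3c1 and Nr3c2, the receptors for corticosteroids, Nr3c1 was thus the detected one. Hsd11b2, which inactivates the hormone, was close to the limit at 6.22 and 6.43. The steroid synthesis genes Cyp11a1, Cyp11b1, Cyp17a1 and Hsd3b1 were below it, as were Akr1c18 and Serpina6, the gene of the hormone's plasma carrier. Cyp21a1 stood barely above it at 5.85 and 5.96. The efflux pump genes Abcb1a (0.45) and Abcb1b (0.35), whose products export some steroids, were higher, and Srd5a3 was equal in both arrays to within 0.01.

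The label of the cells was checked against marker genes. Of 12 fibroblast markers 11 were detected, with Vim at 13.85 and 13.95 and Col1a1 at 12.16 and 11.69, while Lum was below the limit. S100a4 (11.14 and 10.26) and Postn (11.35 and 10.74) lay below the 5th percentile of all detected genes. The summed linear signal of that list was 46097 with DMSO and 42466 with celastrol, and 8 of the 11 detected were lower. Because Cebpd, Pdk4 and Hsd11b1 are also fat cell genes, adipocyte markers were set beside them. Of 9 measured, 6 were detected, with a summed signal of 675 and 760, and 5 of the 6 were higher with celastrol. Of these, Cidec exceeded the limit in the celastrol array only, so it could be counted only as higher. The defining marker Adipoq was below the limit (4.71 and 4.92). Macrophage markers were detected for 3 of 10, all higher, and the signal summed over all 10 was 543 and 842. Every sum given here covers all measured genes of its list, those below the limit included. For comparison, 48.1% of all detected genes were higher and 51.9% lower. Cd68, a lysosomal protein, read 6.86 and 8.33, Cd14, an endotoxin co-receptor, 6.94 and 7.65, and Csf1r, a growth factor receptor, 5.99 and 6.25. Adgre1, Ptprc and Lyz2 were below the limit in both arrays. Endothelial (495 and 503), epithelial (491 and 489) and skeletal muscle (589 and 568) sums were close between the arrays, with 4 of 8, 6 of 8 and 5 of 7 markers detected. Over all genes, 13899 of 19946 were detected, so such counts alone do not show that these cell types were present. The part of other cell types in the values of the members was not tested, and in such bulk RNA fewer cells of a type and less RNA per cell cannot be told apart.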

How the data were processed

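The members and the gene lists were chosen with earlier results of these data known. The deposited values are log2 expression per probe set, made by the authors with RMA (background correction, quantile normalization and a probe set summary), per the submitters' processing notes. The version, the settings and any other arrays in that run were not given in the sources used here. From the values one reads the log2 base. RMA compresses differences of dim probe sets. The table held 35556 probe sets, of which GEO's platform annotation gave 1 gene for 21797, several for 1613 and none for 12146. Entrez identifiers matched 21698 of the 21797 to a gene in a RefSeq table (GRCm38.p6), whose symbol was then used. A gene took its probe set with the highest mean. Depth does not apply to arrays, and their number limits the precision. With 1 array per group, there is no p-value, standard error or interval. Named are all members, their families, and the 4 highest and the 4 lowest detected genes of each list. Marker lists are given by counts and examples, and other exceptions are stated. 10 lists and 6 marker lists were used. Promoter sequences are RefSeq's. The planned comparison of protein sequences was not run. The calculation of differences was checked on simulated arrays with known differences larger than those of the members. That check says nothing about the precision of the member values. Python 3.11.15, numpy 2.4.6, pandas 2.3.3, statsmodels 0.14.6 and matplotlib 3.10.9 were used. Alternatives were other detection limits, scalings, probe set summaries and fold thresholds.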

Additional observations from a re-analysis of the deposited data

How the results depend on the processing

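Across quantile normalization, subtraction of the median difference or of a lowess trend, and averaging of the probe sets of a gene, all 24 recalculated differences of the 6 detected members kept their sign and their side of 2-fold. Averaging left the members unchanged by construction, since each has exactly 1 probe set. Subtracting the median shifted all of them by the same small amount. Cebpd ran from -0.81 to -0.76, Pdk4 from -0.41 to -0.34, Tsc22d3 from 0.32 to 0.38, Sgk1 from 0.61 to 0.67, Fkbp5 from 0.08 to 0.12 and Nr3c1 from 0.06 to 0.12. Hsd11b1, below the limit in both arrays, entered the count of detected members only without a detection limit. Of 408 recalculated values in all, 371 stayed close to the reported one and 37 moved, which means crossing 2-fold or a change of over 0.41 for a difference or median and of over 1.5 times for a count. No member difference or list median reached 2-fold with the main settings, so none could count as a reversed direction. The median of the pyruvate dehydrogenase list changed sign in 2 settings. With the detection limit at the median of all probe sets, the median of the repressed list became -1.16, since fewer dim genes were counted. Without a limit the steroid list had 10 higher and 6 lower genes. With quantile normalization the steroid list had 1 lower and the pyruvate dehydrogenase list 5 higher genes. With the median or the lowess trend subtracted, the steroid list had 1 lower, and the pyruvate dehydrogenase list 6 higher and 4 lower genes. The lowess trend also gave 11 coregulators higher and 2 repressed genes 2-fold higher. The other fold thresholds changed the counts by construction. At 1.5-fold, 860 of all detected genes were higher and 651 lower, with 1 and 1 of the members, 8 and 6 of the induced list, 4 and 12 of the repressed list, 6 higher of the chaperones, 3 and 2 of the coregulators, 1 higher of the steroid list, 1 and 1 of the FKBP family, 2 higher of the SGK list and 2 higher of the C/EBP family. At 3-fold, 60 were higher and 19 lower, with 1 and 1 of the induced list, 0 higher and 5 lower of the repressed list, 1 higher of the chaperones, 0 of the coregulators and 0 of the SGK list. No paired analysis was possible because each group has 1 array and the labels give no replicate numbers. Dim genes near the limit, such as Hsd11b1, cannot be compared at this signal.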
